A study of Mus musculus with 16 samples.

Results

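The smooth muscle content of terminal ileum tissue was followed through 10 genes that encode the contractile and cytoskeletal machinery of smooth muscle cells: Acta2, Actg2, Myh11, Mylk, Cnn1, Tagln, Smtn, Lmod1, Des and Synm. The genes were chosen by name, and the RPKM of all transcripts of a gene were summed (RPKM, a read density per base of transcript that is also normalised to the size of the library). All 10 were among the 23299 genes of the deposited table and among the 19042 genes that passed the filter on low values. The samples were taken from C57BL/6 wild-type mice (WT) and littermates homozygous for the Tas1r3tm1Csz allele (KO, Tas1r3-/-), a germline knockout of a sweet and umami taste receptor subunit that was backcrossed to C57BL/6. The mice were male and female and received either a normal diet with plain water (ND) or a Western diet (WD), a 60% fat chow with a 30% sugar solution, for 10 weeks from a young age. Terminal ileum tissue, for which no separation of mucosa from muscle wall is described, was snap frozen and sequenced on the Ion Proton platform. The groups are WT-ND, KO-ND, WT-WD and KO-WD, and the labels describe 4 samples in each.

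Smooth muscle forms the circular and longitudinal layers of the ileal muscularis propria, the thin muscularis mucosae and the walls of arterioles. Its cells contract when calcium and calmodulin activate myosin light chain kinase, which phosphorylates the light chains of smooth muscle myosin, and actin filaments slide against myosin between dense bodies held by intermediate filaments. The genes of this machinery are switched on together by serum response factor (Srf) and its coactivator myocardin at a DNA element called the CArG box. In bulk tissue, a lower level of such genes can come from fewer muscle cells or from less RNA per cell, and the 2 cannot be told apart.

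The columns of the table were not all independent. Both KO-ND female columns were weighted means of the KO-ND male columns, with weights of 0.75 and 0.25 in one and 0.625 and 0.375 in the other, apart from 17 and 18 transcripts, of which 0 belonged to the 10 genes. They were left out. The KO-WD female columns were also related: 2 times the second minus the first had at most 6 digits in 99.5% of transcripts, against 54.2% for the WT-WD female columns by the same calculation, and they were averaged into 1 library. This left 13 libraries: 4 WT-ND, 2 KO-ND (both male), 4 WT-WD and 3 KO-WD. The implied depth was 7003831 to 12384382 reads, and each of the 10 genes rested on 398 to 29707 implied reads in each library. The targeted gene matched the labels: Tas1r3 lay at 1.80 to 2.95 RPKM in WT-ND and 4.21 to 6.27 RPKM in WT-WD, and at no more than 0.00452 RPKM in the 5 KO libraries. The study describes each ileal transcriptome as that of an individual mouse, with all mice in one room, but the group sizes it names differ from the number of samples labelled here, and the related columns above are not separate mice. The p-values below therefore measure only the spread between these samples. Levels are given as scaled RPKM, the RPKM divided by a factor per library (0.69 to 1.41), and differences as differences of log2(scaled RPKM + 0.5).

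The promoters of the 10 genes were searched for the CArG box. Whether it has a part in the shared movement of the 10 genes between libraries was not tested. RefSeq promoters (GRCm38.p6) matched 7 of the 10 genes, all but Actg2, Myh11 and Tagln. In the 250 bases before the annotated start, 0 of 7 held a strict CArG box on either strand, against 1.47% of 32851 promoters and 3 of 29 promoters of other smooth muscle genes. When 1 G or C was allowed in the core of 6 A or T bases, a search chosen after seeing the data, 2 of 7 held a match, against 8.59% of all promoters and 7 of 29 of the other smooth muscle genes. The 3 matches lay in the promoters of Acta2 and Synm and are shown 5′ to 3′ on the strand of the gene, with the box in capitals and the 10 bases on each side in lower case. The first Acta2 match spans 84 to 75 bases before the RefSeq start, the second 34 to 25 bases, and the Synm match 239 to 230 bases. The 30 bases shown for each lie at chr19:34255438-34255467, chr19:34255388-34255417 and chr7:67759962-67759991, all on the minus strand. Both Acta2 matches lie inside the span of Acta2 given below, which begins further upstream than the RefSeq start.
Acta2 first match: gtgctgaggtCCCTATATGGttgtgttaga
Acta2 second match: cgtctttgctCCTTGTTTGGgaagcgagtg
Synm match: caacggggagCCTCATAAGGtgtcccagat
A match of letters is a description of the window and not evidence of binding, and a window without one says nothing of Srf.

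The 2 actins were the most abundant of the 10 genes together with Tagln. Acta2 (chr19:34241090-34255590), the alpha actin of vascular and visceral smooth muscle, had scaled RPKM of 383, 281, 758 and 390.3 in WT-ND (male 1, male 2, female 1, female 2) and of 732 and 547 in KO-ND (male 1, male 2). In WD-fed mice its scaled RPKM was 1143, 448, 1123 and 222 in WT-WD (in the same sex order) and 1623, 738 and 289 in KO-WD (male 1, male 2, female mean). The lowest and the highest Acta2 level of the study thus both came from WD-fed mice, and the groups overlapped. Actg2 (chr6:83512905-83536265), the gamma actin that dominates in visceral muscle, had scaled RPKM of 358, 197, 547 and 297 in WT-ND, 815 and 389 in KO-ND, 748, 290.5, 647 and 232 in WT-WD, and 1098, 716 and 297 in KO-WD. The libraries high in the one actin were high in the other. The ratio of Actg2 to Acta2 in RPKM ran from 0.576 in WT-WD female 1 to 1.11 in KO-ND male 1, with a median of 0.722. The actins are near-identical in coding sequence, and reads from one could be assigned to another.

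Myh11 and the summed transcripts of Mylk followed the actins. Myh11 (chr16:14194535-14291372), the smooth muscle myosin heavy chain and the most specific of these markers, had scaled RPKM of 149, 108, 285 and 132 in WT-ND, 321 and 181 in KO-ND, 380.1, 151, 385 and 70.9 in WT-WD, and 512, 243 and 124 in KO-WD. The WT-WD libraries fell into a high pair (male 1 and female 1) and a low pair (male 2 and female 2), with 5.43 times as much Myh11 in the highest as in the lowest. Mylk (chr16:34745210-35002420), the gene of the light chain kinase, had scaled RPKM of 248, 210.4, 448 and 253 in WT-ND, 473 and 324 in KO-ND, 634, 272, 649 and 191 in WT-WD, and 845, 355 and 238 in KO-WD. The same libraries were high and low. Of the summed Mylk RPKM, 63.6% to 73.8% belonged to Mylk-203, a short transcript (1620 bases) from the 3′ end of the gene. The long Mylk-201 (7824 bases) held 20.5% to 27.0%, so the Mylk values rest mainly on the short transcript. They do not stand for the long transcript alone.

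Among the regulators of the thin filament, Cnn1 (chr9:22099216-22109630) encodes calponin, an inhibitor of actomyosin, and its scaled RPKM was 122, 73.0, 242 and 114 in WT-ND, 265 and 155 in KO-ND, 274, 105, 322 and 75.0 in WT-WD, and 388, 247 and 108 in KO-WD. Tagln (chr9:45929619-45936058), the actin-bundling protein SM22, had 357, 266, 956 and 352 in WT-ND, 1016 and 329 in KO-ND, 516, 235, 908 and 277 in WT-WD, and 891, 442 and 293 in KO-WD. Tagln was the only one of the 10 genes whose highest scaled RPKM came from an ND-fed mouse, KO-ND male 1. Smtn (chr11:3517523-3540612), smoothelin, ran from 38.4 in WT-WD female 2 to 193 in KO-WD male 1, and Lmod1 (chr1:135324807-135368065), a leiomodin that nucleates actin filaments, from 10.6 in WT-WD female 2 to 74.0 in WT-WD female 1 on the same scale. Of the summed Smtn RPKM, 24.5% to 40.6% belonged to Smtn-206 (625 bases), annotated as a processed transcript. The antisense gene Gm11946 (chr11:3530157-3536856) lies within Smtn, and since the sources used here do not say whether reads were counted by strand, reads of the pair cannot be told apart.

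The intermediate filaments behaved alike. Des (chr1:75360329-75368579), desmin, had scaled RPKM of 279, 183, 527 and 261 in WT-ND, 639 and 351 in KO-ND, 622, 240.2, 639.6 and 147 in WT-WD, and 845, 531 and 258 in KO-WD. Of the summed Des RPKM, 38.3% to 50.8% belonged to Des-202 (835 bases), a transcript annotated as a retained intron. Synm (chr7:67730160-67759742), synemin, which links desmin to the membrane, ran from 14.9 in WT-WD female 2 to 86.5 in KO-WD male 1. Over the 13 libraries, the highest scaled RPKM was between 4.33 times (Tagln) and 7.31 times (Acta2) the lowest. KO-WD male 1 was highest for 8 of the 10 genes. WT-WD female 2 was lowest for 7, WT-ND male 2 for Actg2 and Cnn1, and WT-WD male 2 for Tagln.

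**Figure D1:**
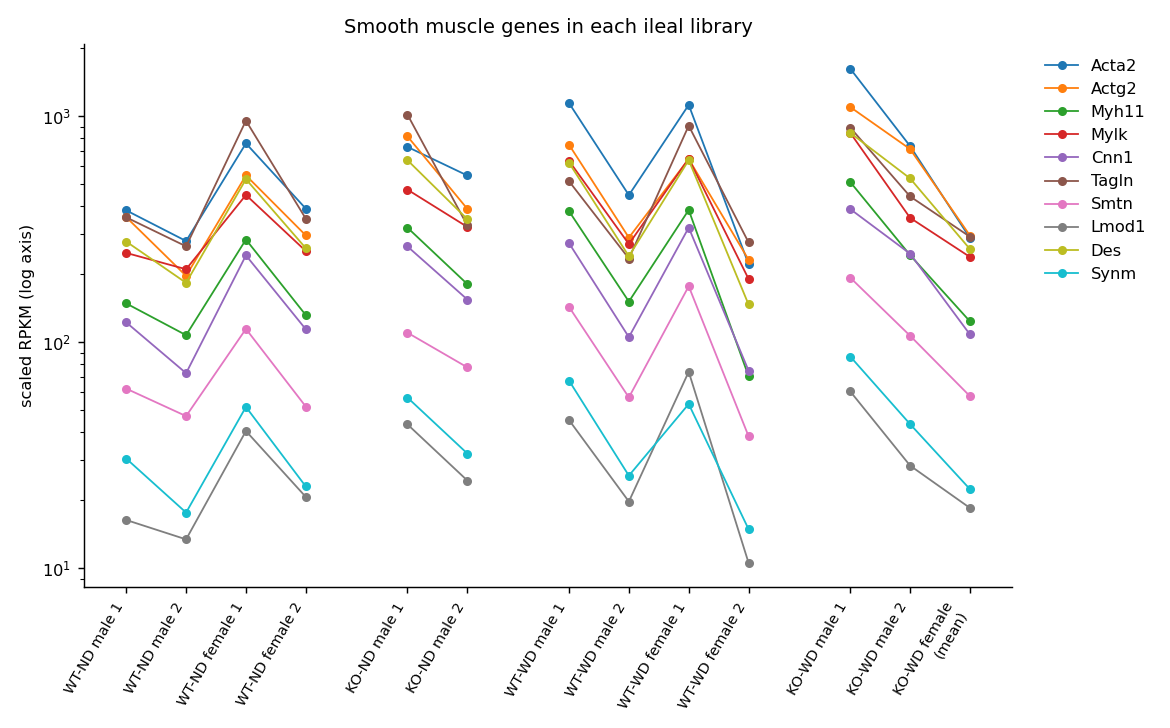
Scaled RPKM (log axis) of the 10 smooth muscle genes in each of the 13 ileal libraries, with 1 line per gene joining the libraries of a group. The lines run nearly parallel, and Acta2 alone spans 222 in WT-WD female 2 to 1623 in KO-WD male 1.

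Within each group the spread was shared by nearly all of the genes. In WT-ND, female 1 was highest and male 2 lowest for 10 of 10 genes, with 2.13 to 3.6 times as much in the highest library as in the lowest. KO-ND male 1 lay above KO-ND male 2 for 10 of 10 genes, by 1.34 to 3.09 times. In WT-WD, female 1 was highest for 7 of 10 genes and female 2 lowest for 9 of 10, and the highest library had 3.22 to 7.0 times the lowest. KO-WD male 1 was highest and the KO-WD female mean lowest for 10 of 10 genes, by 3.04 to 5.61 times. In the 6 pairs of libraries of the same group and sex, the library numbered 1 in the labels lay above the library numbered 2 for 10 of 10 genes each time. What the numbers stand for is not given in the sources used here, and their part in the spread was not tested.

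The mean of the 10 log2 values, called the smooth muscle level here, puts these differences on 1 axis. It was 7.08, 6.56, 8.04 and 6.99 in WT-ND, 8.19 and 7.36 in KO-ND, 8.28, 6.97, 8.43 and 6.36 in WT-WD, and 8.76, 7.83 and 6.89 in KO-WD (log2, libraries in the order above). Between the libraries numbered 1 and 2 of a group and sex the level differed by 0.52 to 2.07 log2, in the same direction in 6 of 6 pairs. From the lowest to the highest library this is a range of 2.39 log2, or 5.26-fold. The group means were 7.17 ± 0.63 (SD, n = 4) in WT-ND, 7.77 ± 0.58 (SD, n = 2) in KO-ND, 7.51 ± 1.01 (SD, n = 4) in WT-WD and 7.82 ± 0.94 (SD, n = 3) in KO-WD. They spanned 0.66 log2, or 1.58-fold, less than the narrowest spread within a group (1.77-fold, between the 2 KO-ND libraries), and every pair of groups compared overlapped. As a share of all deposited RPKM, the 10 genes held from 0.148% in WT-WD female 2 to 0.899% in KO-WD male 1.

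**Figure D2:**
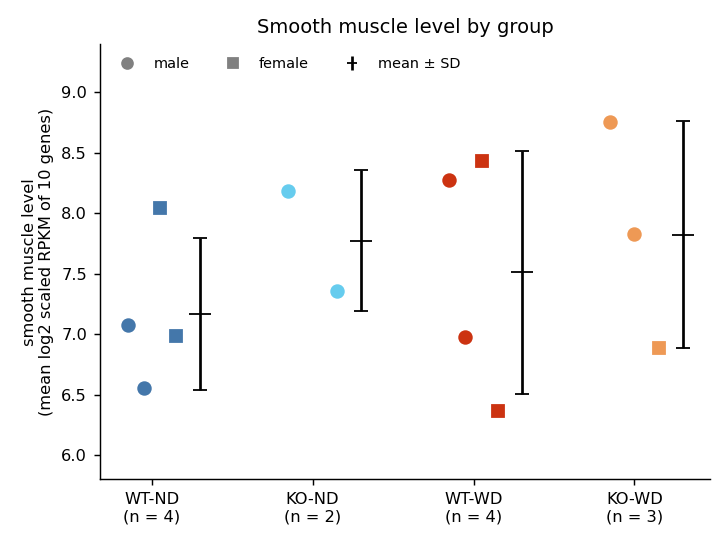
Smooth muscle level (mean log2 scaled RPKM of the 10 genes) of each library by group, with circles for males, squares for females and bars for the mean ± SD. The libraries of WT-WD reach from 6.36 to 8.43 and cover the whole range of WT-ND and KO-ND.

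Of the variance of the smooth muscle level over the 13 libraries, 12.5% lay between the 4 groups. For the single genes the share ran from 5.06% (Tagln) to 23.1% (Actg2), with a median of 12.3%, beside a median of 27.8% over all genes tested. From the degrees of freedom alone, 25% is expected between 4 groups of 13 libraries. The SD within groups had a median of 0.85 log2 over the 10 genes (0.74 for Mylk to 0.95 for Acta2), against 0.40 for all genes tested and 0.35 for the 10904 genes with a mean RPKM of at least 5. The level showed little relation to depth or scaling. Over 13 libraries its Pearson correlation was -0.23 with the implied reads, -0.20 with the summed RPKM and 0.04 with the scale factor, given as descriptions. The level ran from 6.56 to 8.76 in the 8 male libraries and from 6.36 to 8.43 in the 5 female libraries.

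The 10 genes varied together across libraries. Each was compared with the mean of the other 9, which share library, depth and scaling with it, and Pearson's r over 13 libraries ran from 0.87 for Tagln to 0.99 for Cnn1. The log2 value of a gene minus the mean of the other 9 had an SD of 0.12 (Cnn1) to 0.41 (Tagln), with a median of 0.17, far below the SD of 0.69 to 0.88 of the log2 values themselves. Cnn1, Des, Smtn, Myh11 and Synm kept the most constant ratio to the rest, with SDs of at most 0.15. Tagln departed most.

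Genes from neighbouring cell types of the muscle wall moved with the smooth muscle level, and the epithelium moved against it. Among 34 other smooth muscle genes, their mean log2 value had r = 0.98 with the level over 13 libraries, 20 genes had r above 0.9, and 33 were positively correlated. The structural genes Tpm1 (tropomyosin), Flna (filamin), Myl9 (regulatory light chain) and Kcnmb1 (a subunit of the large-conductance potassium channel) each had r of 0.98. The transcription factors were looser: r was 0.74 for Myocd (myocardin), 0.38 for Srf and -0.46 for Mrtfa. The correlation of the other smooth muscle list stayed at 0.98 without the 2 libraries farthest from the median, and was 0.99 within the 6 ND-fed and 0.99 within the 7 WD-fed libraries.

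Markers of the interstitial cells of Cajal, the pacemakers of the gut wall (Kit, Ano1 and Etv1), had r = 0.94 with the level, 0.90 without the 2 farthest libraries. Enteric neurons, whose plexuses lie between the muscle layers (8 genes tested, among them Uchl1 and Vip), had r = 0.93. Enteric glia had r = 0.89 over 5 genes, although Erbb3, which epithelial cells also express, went the other way with r = -0.83. Vascular mural cells had r = 0.92, with single genes from 0.47 (Notch3) and 0.59 (Pdgfrb) to 0.93 (Abcc9). Fibroblasts had r = 0.87, with single genes from 0.68 (Col3a1) to 0.91 (Dcn). The endothelium had r = 0.73, but this was 0.92 in the 7 WD-fed libraries and -0.01 in the 6 ND-fed libraries. Of its 6 genes 5 were positive, and Emcn went the other way with r = -0.51. The r was 0.21 for leukocytes, -0.12 for adipocytes and -0.02 for mesothelium (2 genes tested). For the exocrine pancreas, with 1 gene tested (Ctrb1), r was -0.20 over 13 libraries and -0.78 within the 7 WD-fed libraries, and Spearman's rho was -0.58. Ctrb1 had 0 RPKM in 8 of the 13 libraries, so these correlations rest on the few libraries with a value above 0.

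The epithelial list (Epcam, Vil1, Cdh1, Krt20, Krt19, Lgals4, Cdx2, Cdhr5, Fabp6 and Slc10a2) had r = -0.87 with the smooth muscle level over 13 libraries, -0.84 without the 2 farthest, -0.77 within the ND-fed and -0.91 within the WD-fed libraries, and 10 of 10 genes were negative. Its mean log2 value ranged from 7.34 in KO-WD male 1, the library with the highest smooth muscle level, to 9.49 in WT-ND female 2. RPKM is a share of the library, so a larger part for one tissue layer leaves a smaller part for another. Whether this has a part in the negative correlation was not tested. The defining markers of both layers were present in all 13 libraries: Myh11 at 49.1 to 435 RPKM and Epcam at 209 to 1859 RPKM. The lists of striated muscle followed the level as well, with r = 0.93 for skeletal muscle (4 of 6 genes tested) and r = 0.96 for cardiac muscle (2 of 4 genes tested). In the skeletal list, Ckm (muscle creatine kinase) lay at 6.33 to 60.8 RPKM with r = 0.97 and Myl1 at no more than 3.9 RPKM with r = 0.75, whereas Mylpf (a fast light chain) had r = -0.27 at no more than 2.49 RPKM and Actn3 stayed at no more than 0.332 RPKM. In the cardiac list, Tnnt2 (cardiac troponin T) reached 23.1 RPKM with r = 0.85, and Myh6 (cardiac myosin) reached no more than 0.115 RPKM. Acta1 (r = 0.79) and Actc1 (r = 0.98) are near-identical to the actins of the 10 genes, so their values, and the list values that rest on them, are uncertain.

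**Figure D3:**
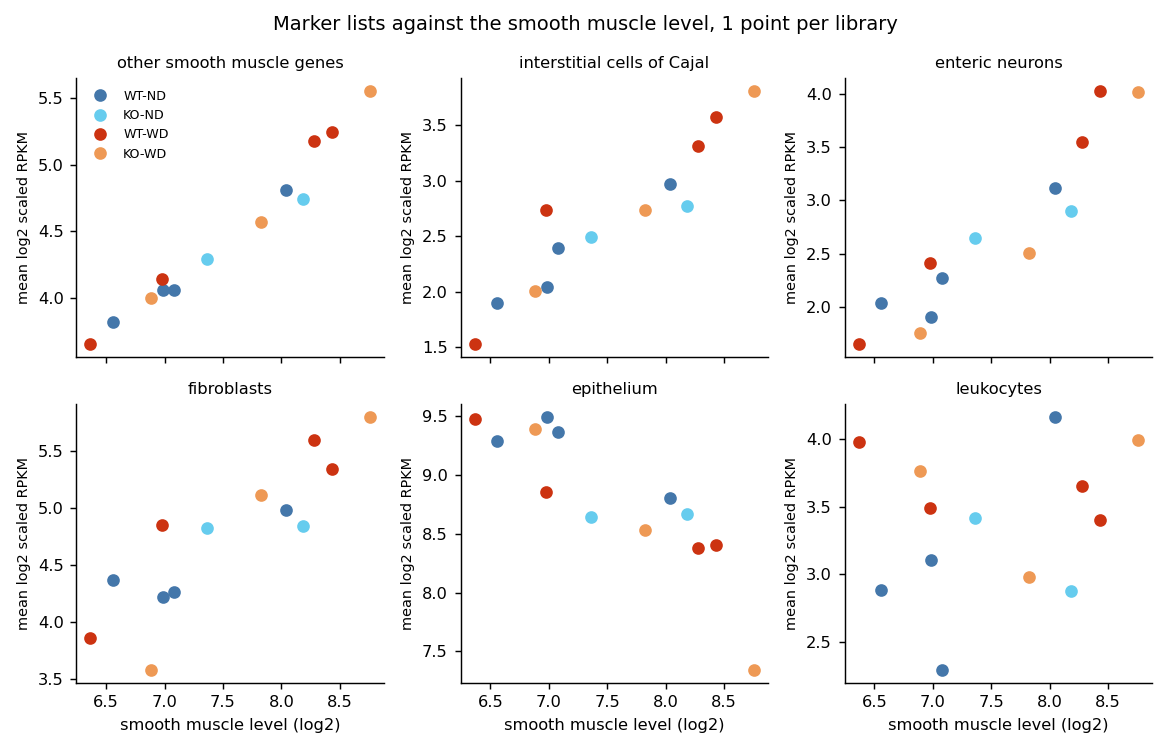
Mean log2 scaled RPKM of 6 marker lists against the smooth muscle level, 1 point per library coloured by group. Other smooth muscle genes, interstitial cells of Cajal, enteric neurons and fibroblasts go up with the level (r = 0.98, 0.94, 0.93 and 0.87), the epithelium goes down (r = -0.87), and leukocytes show little relation (r = 0.21).

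Among 10894 further genes with a mean RPKM of at least 5, 269 (2.47%) had r above 0.9 with the smooth muscle level over the 13 libraries, 582 had r above 0.8 and 408 had r below -0.8. The closest were Slc24a3 (a sodium, potassium and calcium exchanger, r = 0.989), Fam129a (0.988), Gm11946 (0.986, antisense to Smtn), Pdlim3 (0.985) and Kcnmb1 (0.984). Mtss2 (0.983), Pdlim7 (0.98), Fxyd6 (0.979), Tpm1 (0.979) and Flna (0.978) followed. At the other end stood Styk1 (-0.934), 2210016F16Rik (-0.928), Sri (-0.924), Guca2a (guanylin, an epithelial peptide, -0.924) and Anxa11 (-0.923). The first principal component of all genes tested held 31.5% of the variance and had an absolute correlation of 0.86 with the level, and of 0.86 when computed without the 10 genes. The second held 17.1%, with an absolute correlation of 0.37.

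The diet comparison in wild-type mice asked whether WD feeding changed the muscle content of the ileum sample. No difference in the 10 genes was larger than the spread between libraries. Acta2 differed by 0.50 ± 0.59 (SE) log2 between WT-WD and WT-ND, Mylk by 0.46 ± 0.47, Myh11 by 0.35 ± 0.57, Des by 0.25 ± 0.52 and Tagln by -0.02 ± 0.55. 9 of 10 differences were positive, with a median of 0.37 log2, beside 0.02 for all genes tested. With limma, 0 of 10 genes passed an adjusted p below 0.01 with a 2-fold change (0.00525% of all genes tested did), and 0 of 10 had an unadjusted p below 0.05 (15.5% of all genes tested). The lowest adjusted p of limma was 0.658, for Mylk, and the two-sided exact permutation p over libraries ran from 0.343 to 0.971, where 0.0286 is the smallest possible. The 95% intervals had a median half-width of 1.15 log2 (2.21-fold), and the highest upper limit of the 10 was 1.79 log2. Differences above 2.21-fold could therefore be missed as well, since the call threshold is stricter than these intervals. The median was 0.05 without WT-WD female 1 and 0.77 without WT-WD female 2, and in RPKM as deposited, where all genes shift by -0.38, it was -0.09 with 3 of 10 differences positive.

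The epithelial markers had a median difference of -0.48 log2 in this comparison, with 9 of 10 negative and none called. Among the 34 other smooth muscle genes, 30 differences were positive with a median of 0.35 and none was called. The largest were Ppp1r14a (an inhibitor of myosin phosphatase, 0.96 ± 0.53 SE) and Prkg1 (cGMP-dependent kinase, 0.79 ± 0.40), and the smallest Srf (-0.26 ± 0.21) and Mrtfa (-0.16 ± 0.19). Enteric neurons had a median difference of 0.57, the interstitial cells of Cajal of 0.44, leukocytes of 0.55 and adipocytes of -2.07. At an unadjusted p below 0.05 (15.5% of all genes tested) were 3 of 5 adipocyte, 2 of 7 leukocyte, 1 of 8 neuron, 1 of 5 glia, 1 of 6 mural cell and 0 of 3 Cajal cell genes, and none was called. Whether these shifts of tissue layers have a part in one another was not tested.

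In Tas1r3-/- mice the 10 genes gave no diet difference that could be told from the spread. KO-WD minus KO-ND had a median of 0.06 log2 over the 10 genes (range -0.25 for Tagln to 0.20 for Smtn, 8 of 10 positive), beside 0.00 for all genes tested. By limma 0 of 10 were called (0% of all genes tested) and 0 of 10 had an unadjusted p below 0.05 (5.49% of all genes tested). The two-sided exact permutation p was between 0.7 and 1, with 0.1 the smallest that 3 against 2 libraries allow. Single libraries set the sign, since the median was -0.44 without KO-WD male 1, 0.53 without the KO-WD female mean and -0.24 with all 16 columns as labelled. The interaction, the diet difference in KO minus that in WT, had a median of -0.26 with 10 of 10 negative, SE of 0.76 to 0.97, 0 of 10 genes called (0% of all genes tested) and 0 of 10 at an unadjusted p below 0.05 (1.43% of all genes tested). Its sign also rested on single libraries, since the median was -0.70 without KO-WD male 1 and 0.23 without the KO-WD female mean.

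The genotype comparison under ND gave the largest differences of the set, still within the spread between libraries. Actg2 differed by 0.78 ± 0.61 (SE) log2 between KO-ND and WT-ND, Des by 0.71 ± 0.64, Cnn1 by 0.69 ± 0.65, Myh11 by 0.62 ± 0.70 and Tagln by 0.45 ± 0.67. All 10 differences were positive, with a median of 0.60, and for each gene the groups overlapped, because WT-ND female 1 lay above KO-ND male 2. By limma 0 of 10 were called (0% of all genes tested), 0 of 10 had an unadjusted p below 0.05 (4.73% of all genes tested), and the lowest adjusted p was 0.895. The exact permutation p was at least 0.267, and 4 against 2 libraries cannot go below 0.0667. KO-ND holds only males: among males alone the median was 0.97, and it was 0.24 without KO-ND male 1 and 1.05 without KO-ND male 2. The epithelial markers had a median difference of -0.66 here. Among the other smooth muscle genes, 25 of 34 differences were positive, with Hspb6 (a small heat shock protein of muscle) at 0.96 ± 0.64 and Mef2c at -0.65 ± 0.48 at the ends.

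Under WD the median difference between KO and WT libraries was smaller than under ND, but the interaction of genotype and diet was called for 0 of 10 genes. Actg2 differed by 0.53 ± 0.54 (SE) log2 between KO-WD and WT-WD, Des by 0.50 ± 0.57, Cnn1 by 0.42 ± 0.58, Acta2 by 0.23 ± 0.64 and Mylk by 0.12 ± 0.50. All 10 were positive with a median of 0.31, beside -0.01 for all genes tested, and limma called 0 of 10 (0.0105% of all genes tested) with 0 of 10 at an unadjusted p below 0.05 (2.65% of all genes tested). The two-sided exact permutation p was at least 0.486, where 4 against 3 libraries allow 0.0286. The direction rested on single libraries: the median was -0.14 without KO-WD male 1 and 0.82 without the KO-WD female mean. The 4 comparisons share libraries, since WT-ND serves both the wild-type diet and the ND genotype comparison and KO-WD both the KO diet and the WD genotype comparison, so their signs are not independent.

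**Figure D4:**
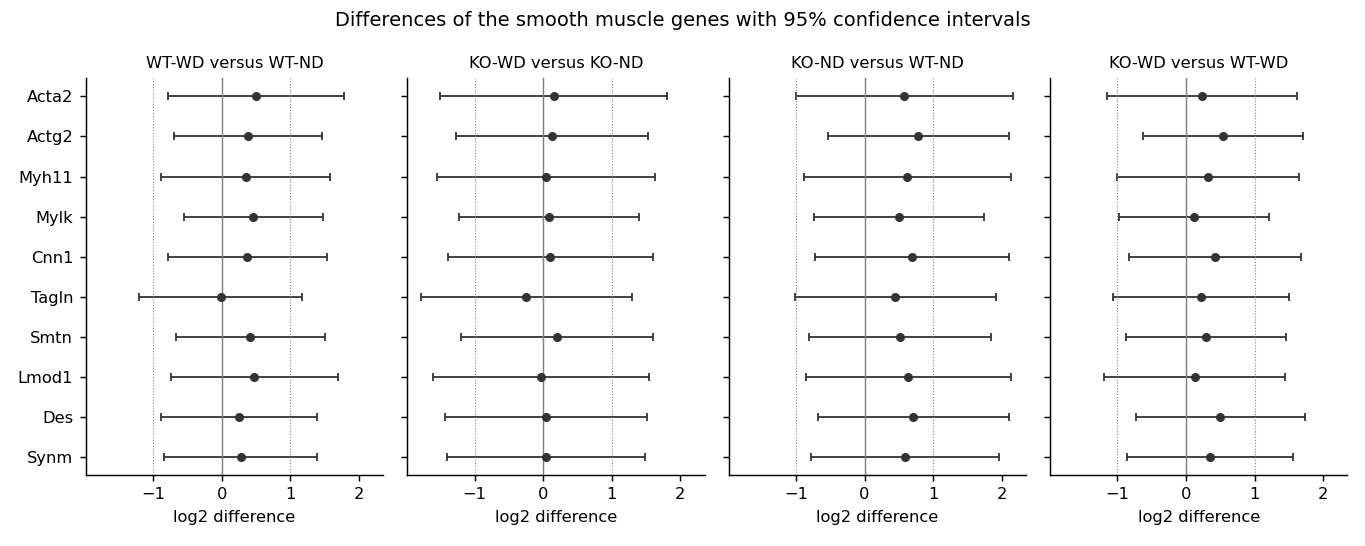
Log2 difference of each of the 10 genes in 4 comparisons, with the 95% confidence interval of limma. Dotted lines mark a 2-fold difference, and all 40 intervals cross 0.

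Each gene was also compared between groups relative to the other 9. Tagln minus the mean of the other 9 was 1.33 ± 0.51 (SD, n = 4) in WT-WD and 1.73 ± 0.23 (SD, n = 4) in WT-ND, a difference of -0.40 log2 with overlapping groups and an exact permutation p of 0.2. Des minus the other 9 was 1.24 ± 0.03 (SD, n = 2) in KO-ND and 1.13 ± 0.04 (SD, n = 4) in WT-ND, and these did not overlap, with an exact permutation p of 0.0667, the smallest possible for this pair of groups. It was 1 of 40 such comparisons, and no share of non-overlap over all genes was computed for this measure to set beside it. With so few libraries non-overlap is frequent: for transcript shares, another measure, it was 17% of all transcripts tested between KO-ND and WT-ND. The Des value is therefore not read as a result about Des. By the level of single genes, a different measure, 0 of 19042 genes (0%) were called between KO-ND and WT-ND. When the smooth muscle level was entered as a covariate, an alternative chosen after seeing the data, the median residual SD over all genes tested went from 0.40 to 0.33. The genes at an adjusted p below 0.05 in limma went from 22 to 219 between WT-WD and WT-ND, while those called at an adjusted p below 0.01 and 2-fold stayed at 1 in number. In the other comparisons the numbers at an adjusted p below 0.05 were 1 and 1 for KO-WD against KO-ND, 1 and 1 for KO-ND against WT-ND, and 5 and 6 for KO-WD against WT-WD, without and with the level.

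The transcripts of a gene gave a second view, in which each share is relative to the summed RPKM of its own gene and not to the whole library. 24 transcripts of 9 genes could be tested. Between WT-WD and WT-ND, 0 of 24 were called (0.264% of 19341 transcripts tested), 8 of 24, in Acta2, Actg2, Smtn and Tagln, had an unadjusted p below 0.05 (18.2% of all transcripts tested), and the lowest adjusted p of limma was 0.0918. The log2 ratio of a transcript to the rest of its gene did not overlap between WT-WD and WT-ND for 8 of 24 (11.1% of all transcripts tested). The shares of the 2 transcripts of Acta2 and of Tagln sum to the whole, so each pair is 1 measurement.

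For Tagln, the full-length Tagln-201 (1595 bases) held 32.1%, 35.2%, 22.9% and 36.3% of the gene's RPKM in WT-ND and 58.2%, 50%, 52.6% and 38.6% in WT-WD. The groups did not overlap. The mean was 49.8% ± 8.25 (SD, n = 4) in WT-WD and 31.6% ± 6.07 (SD, n = 4) in WT-ND, and the log2 ratio of Tagln-201 to the rest of the gene differed by 1.12 ± 0.36 (SE), with an adjusted p of 0.128 in limma and an exact permutation p of 0.0286, the smallest possible. In Tas1r3-/- mice the share was 46.2%, 57.5% and 48.3% in KO-WD and 24.5% and 45.5% in KO-ND. These did not overlap either, but the exact permutation p was 0.1, the smallest that these groups allow, and non-overlap was frequent in that comparison, as given below. The other transcript, Tagln-202, has only 369 annotated bases, so its reads weigh more in a sum of RPKM. With reads per library in place of summed RPKM, an alternative chosen after seeing the data, the Tagln difference between WT-WD and WT-ND was 0.33 log2 in place of -0.02.

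In other genes either longer or shorter transcripts had the larger share under WD. Acta2-201, the long transcript, held 77.1% ± 5.47 (SD, n = 4) in WT-WD and 67.4% ± 6.48 (SD, n = 4) in WT-ND, with a log2 ratio difference of 0.72 ± 0.32 (SE) and an adjusted p of 0.253 in limma. In Actg2 it was a short transcript, Actg2-204 (713 bases), that held 16% ± 1.88 in WT-WD and 9.80% ± 1.77 in WT-ND (SD, n = 4 each, adjusted p of 0.15 in limma), and the log2 ratio of the longest, Actg2-201 (1333 bases), differed by -0.88 ± 0.38 (SE). Mylk-203, a short transcript from the 3′ end of the gene, held 70.4% ± 2.97 and 64.8% ± 0.91 (SD, n = 4 each) and did not overlap. Smtn-201 (1747 bases) had the largest log2 ratio difference of the 24, 2.42 ± 0.68 (SE), and the lowest adjusted p, 0.0918 in limma, with mean shares of 11.9% in WT-WD and 1.92% in WT-ND that overlapped. The longer Smtn-203 (3117 bases) differed by -0.81 ± 0.28 (SE), with 14.3% and 22.8% of the gene's RPKM and no overlap. None of these passed the threshold.

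In Tas1r3-/- mice, 0 of 24 transcripts were called between KO-WD and KO-ND (0.0103% of all transcripts tested) and 1 of 24, Smtn-203, had an unadjusted p below 0.05 (9.95% of all transcripts tested). The log2 ratios of 16 of 24 did not overlap (27.4% of all transcripts tested). Between KO-ND and WT-ND, 0 of 24 were called (0%), 1 of 24 had an unadjusted p below 0.05 (5.6%) and 2 of 24 did not overlap (17% of all transcripts tested). Between KO-WD and WT-WD 0 of 24 were called (0%), 0 of 24 had an unadjusted p below 0.05 (5.07%) and 0 of 24 did not overlap (4.51% of all transcripts tested). The ND-fed libraries also differ from the WD-fed libraries in their summed RPKM over all transcripts, which was 817011 to 819916 in ND and 542371 to 672933 in WD. Diet and this property of the deposited values cannot be told apart.

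**Figure D5:**
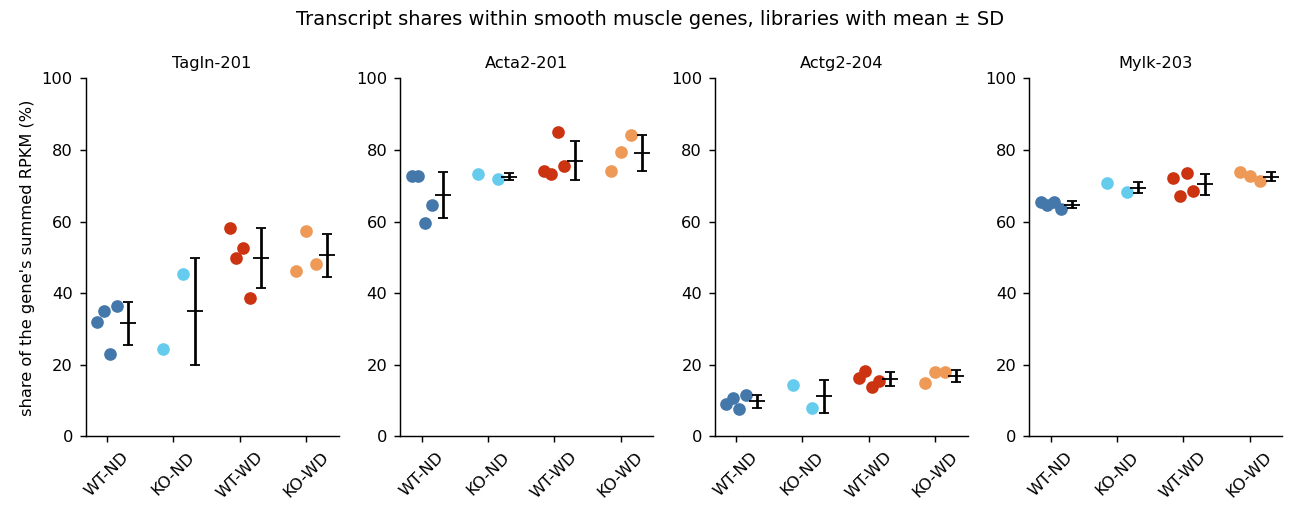
Share of a gene's summed RPKM (%) held by Tagln-201, Acta2-201, Actg2-204 and Mylk-203 in each library by group, with bars for the mean ± SD. Tagln-201 lies at 22.9% to 36.3% in WT-ND and at 38.6% to 58.2% in WT-WD.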

How the data were processed

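mRNA isolated from total RNA of terminal ileum was depleted of rRNA and sequenced on the Ion Proton by the authors, who mapped the reads to mm10 with STAR in Partek Flow and quantified Ensembl transcripts. The deposited values are RPKM per transcript, already divided by length and library total by the authors. Which library total was used is not given in the sources used here. Transcripts were matched by name to GENCODE M21 (GRCm38), 98.2% of them, for lengths and positions.

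RPKM was summed per gene, and libraries were scaled by trimmed mean of log ratios (30% of ratios and 5% of levels trimmed at each end). The 19042 genes that reached an RPKM of 1 in 2 or more libraries were fitted with limma 3.58.1 (R 4.3.3, trend) on log2(scaled RPKM + 0.5), with all 4 groups in 1 fit and Benjamini-Hochberg adjustment over all genes. The call threshold of the study's methods was kept (adjusted p under 0.01, fold of 2). limma took the place of the authors' count model because the deposited values are not counts. The script was tested on simulated data. Single values were compared with two-sided exact permutation tests. Transcript shares used transcripts at 5% to 95% of genes with an RPKM of at least 5. Correlations use log2 values.

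Depth was read from low RPKM values, which are whole multiples of 1 read: 86.9% to 88.2% of the values from 0.5 to 200 reads were whole within 0.02 reads. Named outside the 10 genes are the 10 genes nearest to the level and the 5 farthest, the ends of marker lists, list markers and Tas1r3. The 10 genes and all lists were chosen with earlier results of these data known. Alternatives were other scalings, pseudocounts, filters, covariates and sample sets, and each library left out.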

Additional observations from a re-analysis of the deposited data

Results flagged for a closer look

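Of 50 groups of 4 libraries tested for a library far from the rest, over marker lists and smooth muscle values, 1 met the criterion, where chance gives about 1 in 20. The tested marker of the exocrine pancreas, Ctrb1, had a log2 level of 2.97 in WT-ND female 1 and of -1 to -0.37 in the other 3 WT-ND libraries, a gap of 0.84 of the range. WT-ND female 1 was also the WT-ND library with the highest smooth muscle level, 8.04 against 6.56 to 7.08 in the others, and whether pancreas RNA has a part in this was not tested. Without WT-ND female 1 the median difference of the 10 genes between WT-WD and WT-ND was 0.66 and that between KO-ND and WT-ND was 0.89.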

How the results depend on the processing

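In each of the 5 comparisons 0 of 10 genes were called, under every alternative run and with each library left out. As reported, at most 2 of 19042 genes were called at all, so 0 calls is a weak check. The medians moved by less than 1 SD within groups (0.85 log2), a bound wider than every median as reported. Medians that changed sign stayed within it, as from -0.44 to 0.53 for KO-WD against KO-ND with single libraries left out. Of 420 single-gene differences under other settings in the 3 comparisons named gene by gene, 17 turned. They did so for Tagln in WT-WD against WT-ND with median-of-ratios scaling (0.00154), upper quartile scaling (0.0338), a mean RPKM of at least 5 (0.0533), males only (0.18) and reads per library in place of RPKM (0.33). With RPKM as deposited in that comparison they were Actg2 (-0.0836), Myh11 (-0.11), Cnn1 (-0.0866), Smtn (-0.0420), Des (-0.21) and Synm (-0.18), while all genes shifted by -0.38 and called genes went from 1 to 539. In KO-WD against WT-WD they were Acta2 (-0.0240), Mylk (-0.0706) and Lmod1 (-0.11) under the replicate block, and Acta2 (-0.0670), Mylk (-0.0605) and Lmod1 (-0.0447) with all 16 columns. The cause was not tested.

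Leaving out 1 library turned 23 of 390 single-gene differences. The ranges were -0.35 to 0.87 for Acta2, -0.35 to 0.59 for Lmod1, -0.18 to 0.82 for Myh11, -0.37 to 0.52 for Mylk, -0.11 to 0.73 for Smtn, -0.11 to 0.83 for Synm and -0.19 to 0.61 for Tagln in KO-WD against WT-WD. They were -0.0517 to 0.66 for Des, -0.0441 to 0.67 for Synm and -0.40 to 0.38 for Tagln in WT-WD against WT-ND, and -0.36 to 1.28 for Tagln in KO-ND against WT-ND.

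The replicate numbers were not taken to pair the samples. The labels do not say what a number marks, and the correlation of same-numbered libraries between groups was over 0.1 in 5 of 10 pairs. It ran from -0.15 to 0.57 (from 0.42 to 0.57 over the 2 male pairs of KO-WD and WT-WD), and 7 of 10 libraries correlated best with their own number. The replicate block gave medians of 0.37, 0.03, 0.45, 0.06 and -0.34 log2 for the WT diet, KO diet, ND genotype, WD genotype and interaction comparisons, with 0 calls. Depth did not limit these genes, which had at least 398 implied reads.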
